A study of Trichoderma reesei with 11 samples.

Results

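A set of 53 gene IDs of the filamentous fungus Trichoderma reesei had more RNA in constant light than in constant darkness in the parent strain, while the light over dark ratio in a strain lacking the HOG pathway kinase gene TR_57513 stayed near 1. The 53 IDs were taken from 10879 IDs in the count table, and they were selected on the measured levels of the 4 groups of libraries, 11 libraries in all. Counts were divided by the library total and multiplied by 1000000 (CPM), and 0.5 was added to each group mean. An ID entered when its parent light level was at least 5, its light over dark ratio in the parent was at least 2, its light over dark ratio in the deletion strain lay between 0.667 and 1.33, and its deletion over parent ratio in darkness lay between 0.667 and 1.5. The first and last 20 IDs of each lettered ID series were skipped, which left 10596. The upper limit of 1.33 means that a small response to light in the deletion strain is not told apart from none.

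The libraries came from mycelium grown for 96 h with cellulose as the carbon source. The deletion strain was QM6aΔmus53Δ57513, with 3 libraries from constant light and 3 from constant darkness, and its parent was QM6aΔmus53, with 3 libraries from light and 2 from darkness. Both strains lack mus53, a gene of the non-homologous end joining pathway that is deleted to ease gene targeting, so no strain here is a full wild type. The labels name neither a complemented strain nor the number of transformants, and they do not say that replicates were separate cultures. A p-value here measures only the spread between these libraries, which may be technical.

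The HOG pathway is a chain of 3 protein kinases, a MAPKKK, a MAPKK and a Hog-type MAP kinase, and in budding yeast it carries the response to osmotic stress. In Aspergillus nidulans, light signals from the phytochrome pass through this pathway. Trichoderma species sense blue light with White Collar-type photoreceptor proteins, and in Trichoderma reesei light changes the expression of genes for cellulose-degrading enzymes. The table does not pair its IDs with gene names, and 0 of 10879 IDs matched the 9116 genes of a RefSeq annotation of this species. The members therefore carry no gene name, function or sequence here. The IDs consist of a series letter from A to G, a serial number and an end letter, W or C, which the table does not explain. The deleted gene and markers of mycelium were not looked up for the same reason, so the strain labels were not checked against the data.

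Library totals were 8924252 to 10184280 counts in deletion light, 13790024 to 18278047 in deletion dark, 8020351 to 8770166 in parent light and 15175573 to 16308391 in parent dark libraries. The numbers that the labels give the libraries form one block for light and another for darkness, so the light condition and the block cannot be told apart. Both strains of a light condition lie in the same block. Levels in CPM are not per gene length, so they are compared between groups for an ID and not between IDs. In these bulk samples, fewer cells that make an RNA and less of it per cell cannot be told apart.

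Summed over the 53 members, expression was 1906 ± 102 CPM in deletion light (SD, n = 3) and 1735 ± 39.3 CPM in deletion dark libraries (SD, n = 3). In the parent the sum was 4272 ± 394 CPM in light (SD, n = 3) and 1518 ± 157 CPM in darkness (SD, n = 2). The members held 0.180 to 0.200% of all counts in deletion light, 0.171 to 0.178% in deletion dark, 0.394 to 0.471% in parent light and 0.141 to 0.163% in parent dark libraries. The parent light libraries thus stood above the other 8, which is the pattern the choice of members asked for. Among those 8, shares were all higher in deletion light than in deletion dark, and all higher in deletion dark than in parent dark. On the same totals, the 7189 IDs at the parent light minimum had a median light over dark ratio of 1.18 in the deletion strain. The sign of the members' median log2 light ratio in that strain depended on the scaling, so no light response is read from these shares.

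**Figure D1:**
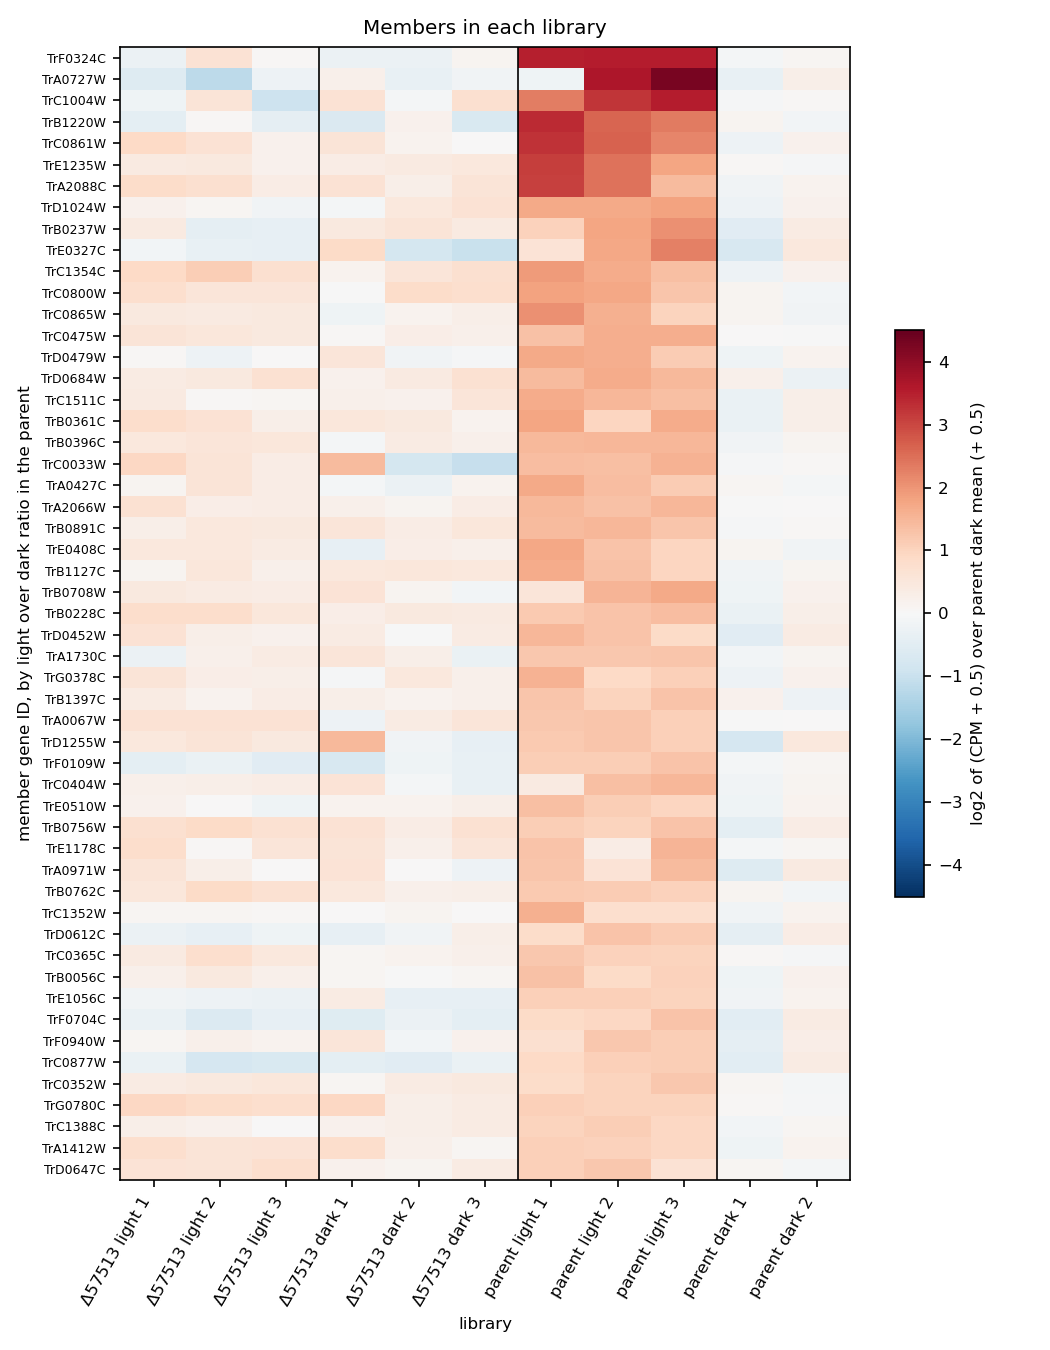
Level of each of the 53 members (rows) in each of the 11 libraries (columns: deletion light, deletion dark, parent light, parent dark), shown as the log2 of CPM + 0.5 relative to the member's mean over the 2 parent dark libraries. The parent light columns are the high ones, and replicate 1 differs from the other parent light libraries in 6 of the 7 top rows.

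The choice narrowed as follows. Of 7189 IDs that reached the level of 5 in parent light, 643 (8.94%) had a parent light over dark ratio of at least 2. The dark level in the deletion strain was above 1.5 times that of the parent for 228 of these, below 0.667 times for 61, and between the limits for 354. Among the 354, the light over dark ratio in the deletion strain was at least 2 for 166, between 1.33 and 2 for 121, in the window for 53 and below it for 14. The members were therefore 15.0% of the IDs with a parent ratio of at least 2 and a like dark level, and 8.24% of all 643. The 166 IDs with at least 2-fold higher levels in light in both strains outnumbered them.

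Light over dark ratios of the members in the deletion strain lay between 0.684 and 1.33 with a median of 1.08, against 2.0 to 11.5 with a median of 2.43 in the parent. Over all 7189 IDs at the level minimum the median light over dark ratio was 1.18 in the deletion strain and 1.15 in the parent. The rule capped the members' ratio in the deletion strain at 1.33 and left that of the other IDs free, so nothing is read from the distance between these medians. In light, the deletion over parent ratio ran from 0.0609 to 0.881 with a median of 0.50, and it was under 0.5 for 27 members. In darkness the deletion over parent ratio ran from 0.752 to 1.49 with a median of 1.18 and was above 1 for 43 of 53 (81.1%), against 50.0% of the 7189 IDs, whose median was 1.0. The 166 IDs with higher levels in light in both strains had a median dark ratio of 1.03. Because the choice bounded this ratio and set the parent dark level low relative to parent light, the tilt is given as a description. Deletion light levels over parent dark levels had a median of 1.30 and were above 1 for 42 members (79.2%). Over the 7189 IDs the median was 1.19, and 69.5% were above 1.

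**Figure D2:**
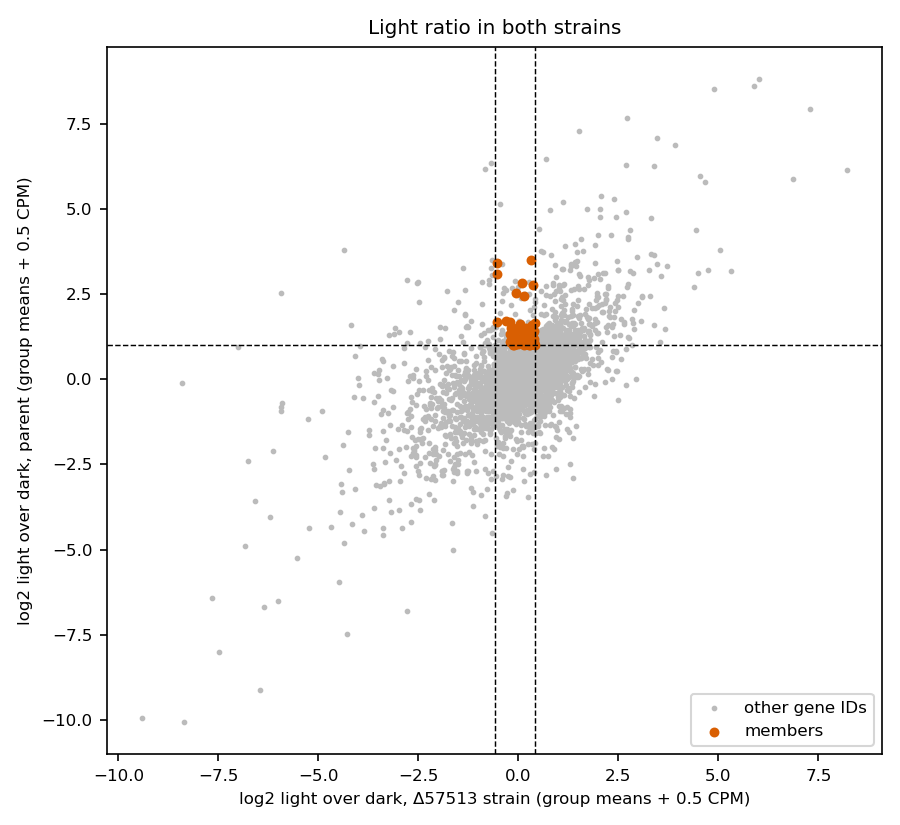
Log2 of the light over dark ratio in the deletion strain (horizontal) and in the parent (vertical), from group means + 0.5 CPM, for IDs that reached the parent light level, with the 53 members in orange, the other IDs in grey and the limits of the rule dashed. As ratios, the members lie at 0.684 to 1.33 in the deletion strain and at 2.0 to 11.5 in the parent by choice, and 40 of them have a parent ratio under 3.

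Most members changed little more than 2-fold in the parent. The parent ratio was at least 5 for 7 members, between 3 and 5 for 6 and between 2 and 3 for 40. The median deletion over parent ratio in light was 0.118 among the 7, 0.376 among the 6 and 0.533 among the 40. The rule bounded the deletion strain's light ratio and the dark ratio, so this order follows from the choice.

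The highest parent ratio, 11.5, belonged to TrF0324C, a rare RNA. It had 0, 0.440 and 0.112 CPM in deletion light and 0, 0 and 0.145 CPM in deletion dark libraries, against 6.29, 6.36 and 6.39 CPM in parent light and 0.0613 and 0.132 CPM in parent dark libraries. The 3 parent light libraries were alike and far above the other 8. The groups held 5 counts in deletion light, 2 in deletion dark, 161 in parent light and 3 in parent dark. Without the added 0.5, the ratio of light to dark in the deletion strain was 4.31 with a 95% counting interval of 0.705 to 45.2, and in the parent it was 66.6 (22.4 to 326). Its ratio of 1.25 in the deletion strain hence rests on the 0.5 added to the means, and no light response of the deletion strain could be measured for it at this depth. These intervals cover counting error only.

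In TrA0727W and TrC1004W, the next 2 by parent ratio, parent light replicate 1 lay below the other replicates. TrA0727W had 0.589, 0.220 and 0.896 CPM in deletion light and 1.42, 0.788 and 0.943 CPM in deletion dark libraries, against 0.932, 19.6 and 30.7 CPM in parent light and 0.797 and 1.45 CPM in parent dark libraries. Parent light replicate 1 lay within the parent dark range, so the 10.8-fold parent ratio came from replicates 2 and 3. TrC1004W had 1.87, 3.52 and 0.896 CPM in deletion light and 3.72, 2.06 and 3.99 CPM in deletion dark libraries, against 12.7, 24.7 and 30.9 CPM in parent light and 2.08 and 2.31 CPM in parent dark libraries. Here every parent light library stood above every other library. The parent ratio was 8.63 and the deletion ratio 0.691.

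In 4 other members of the group at least 5-fold higher, parent light replicate 1 was the highest library. TrB1220W had 0.982, 1.54 and 1.01 CPM in deletion light and 0.766, 1.76 and 0.725 CPM in deletion dark libraries, against 19.9, 11.7 and 9.58 CPM in parent light and 1.66 and 1.32 CPM in parent dark libraries. TrC0861W had 55.3, 46.7 and 33.6 CPM in deletion light and 44.3, 32.4 and 29.2 CPM in deletion dark libraries, against 285, 185 and 135 CPM in parent light and 24.8 and 33.6 CPM in parent dark libraries. TrA2088C had 6.78, 6.27 and 4.59 CPM in deletion light and 5.91, 4.43 and 5.66 CPM in deletion dark libraries, against 33.6, 21.8 and 10.4 CPM in parent light and 3.13 and 4.02 CPM in parent dark libraries. The 3 IDs shared a pattern in which parent light was wholly above the other groups and the 2 deletion groups overlapped. Their parent ratios were 7.17, 6.81 and 5.5, and their deletion ratios 1.06, 1.28 and 1.09, in that order. For TrC0861W the overlap of the deletion groups came from deletion dark replicate 1 alone. Its deletion ratio was 1.46 without that library, outside the window. TrE1235W had 92.6, 94.8 and 80.7 CPM in deletion light and 89.3, 92.5 and 97.0 CPM in deletion dark libraries, against 615, 385 and 241 CPM in parent light and 72.0 and 68.3 CPM in parent dark libraries. Its deletion libraries lay within a narrow band just above parent dark, at a mean of 89.4 ± 7.61 CPM in light and 92.9 ± 3.83 CPM in darkness (SD, n = 3 each). Its parent means were 413 ± 189 CPM in light (SD, n = 3) and 70.2 ± 2.67 CPM in darkness (SD, n = 2).

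**Figure D3:**
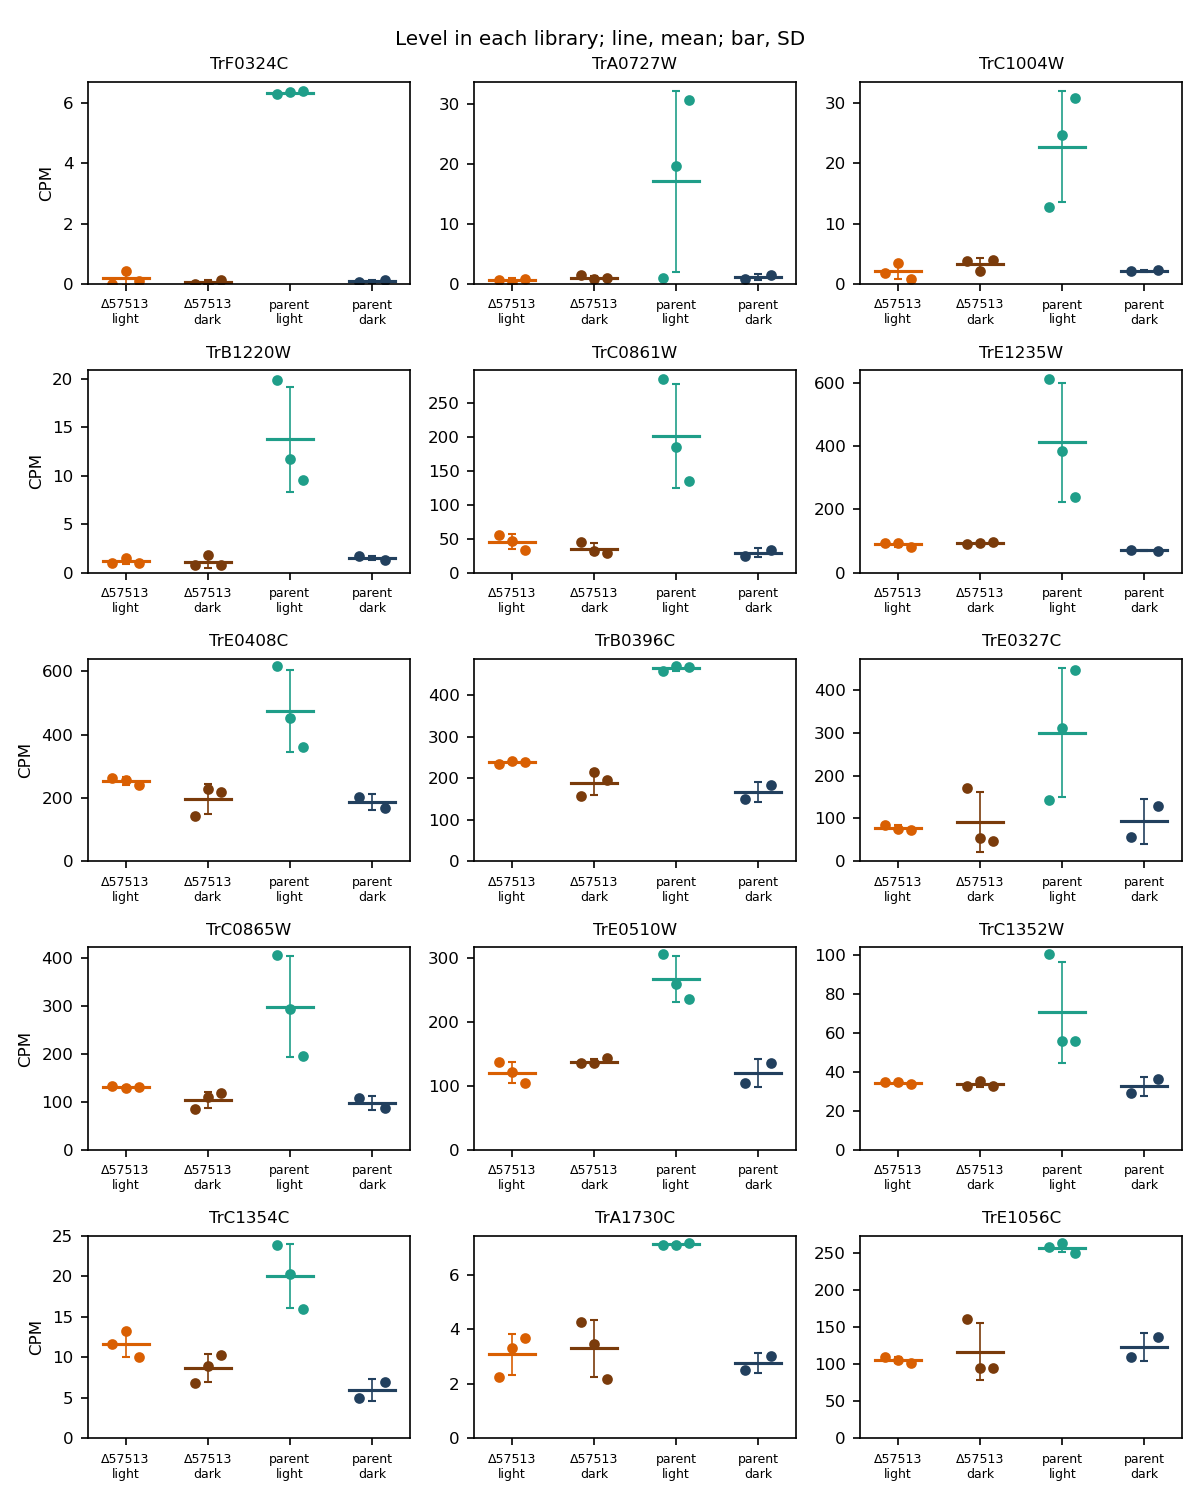
CPM of members named by rule in each library (points) with the group mean (line) and SD (bar), in 15 panels with separate linear axes that start at 0 and with deletion light, deletion dark, parent light and parent dark from left to right. The parent light mean is the highest in each panel, and only in TrA0727W and TrE0327C does a parent light library fall among those of the other groups.

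Apart from TrE1235W, the 6 members with the highest parent light levels had parent ratios from 2.22 to 3.22, each resting on 6758 to 12073 counts in parent light. TrE0408C, whose parent light mean was the highest of the members, had 262, 258 and 240.5 CPM in deletion light and 143, 228 and 218 CPM in deletion dark libraries, against 617, 451 and 361 CPM in parent light and 204 and 168 CPM in parent dark libraries. Its deletion light libraries were all above its deletion dark libraries, at a ratio of 1.29. TrB0396C had 233, 242 and 239 CPM in deletion light and 156, 216 and 196 CPM in deletion dark libraries, against 458, 469 and 468 CPM in parent light and 149.8 and 183 CPM in parent dark libraries. It too was higher in every deletion light library than in every deletion dark library, at 1.26-fold, against 2.79-fold in the parent. TrC0865W had 134, 129 and 131 CPM in deletion light and 85.8, 109 and 118 CPM in deletion dark libraries, against 407, 294 and 196 CPM in parent light and 108 and 87.8 CPM in parent dark libraries. These 3 IDs sat in the upper part of the window, with deletion light ranges above deletion dark ranges and below parent light ranges.

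Other abundant members had a light over dark ratio under 1 in the deletion strain, though not all of them without deletion dark replicate 1. TrE0510W had 137, 121 and 104 CPM in deletion light and 135, 135 and 143 CPM in deletion dark libraries, against 306, 258 and 235 CPM in parent light and 105 and 135 CPM in parent dark libraries. TrE1056C had 110.2, 105 and 102 CPM in deletion light and 162, 94.9 and 94.6 CPM in deletion dark libraries, against 259, 263 and 250.3 CPM in parent light and 110.2 and 137 CPM in parent dark libraries. In both, deletion light overlapped deletion dark and lay far below parent light, and deletion over parent ratios in light were 0.454 and 0.412. For TrE1056C, deletion dark replicate 1 was above every deletion light library. Its ratio in the deletion strain was 0.905 with that library and 1.12 without it. TrE0327C had 85.5, 74.6 and 72.7 CPM in deletion light and 171, 54.0 and 46.3 CPM in deletion dark libraries, against 144, 311 and 446 CPM in parent light and 56.1 and 129.9 CPM in parent dark libraries. Deletion dark replicate 1 was higher than every deletion light library of this ID. Its ratio in the deletion strain was 0.858 with that library and 1.54 without it, outside the window.

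The steadiest member in parent light was TrA1730C, with 2.26, 3.30 and 3.70 CPM in deletion light and 4.27, 3.46 and 2.18 CPM in deletion dark libraries, against 7.11, 7.11 and 7.18 CPM in parent light and 2.51 and 3.03 CPM in parent dark libraries. Its coefficient of variation in parent light was 0.607%, the lowest of the 53, and that of TrA0727W, 88.1%, was the highest. The median over members was 12.3% in deletion light, 16.4% in deletion dark, 16.2% in parent light and 17.7% in parent dark libraries, against 7.02, 12.0, 10.7 and 11% over the 7189 IDs. The members' medians were hence above those of the IDs at large in all 4 groups. The sets were not matched for level, which also bears on the coefficient of variation, and the part of level was not tested. The 166 IDs higher in light in both strains had medians of 10.7, 17.9, 14.8 and 14.7% in the same order of groups. These too were above the IDs at large, and in deletion dark above the members, so the greater spread was not particular to the members.

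Fits over all IDs were used to set the members beside the rest. edgeR's quasi-likelihood test with Benjamini-Hochberg adjustment over 9040 IDs, at a threshold of 0.05, called 47 of the 53 members higher in light in the parent, a call made for 18.3% of all IDs tested, and 0 lower (20.4%). In light it called 44 members lower in the deletion strain (13.1% of all IDs). The difference between the strains in their response to light, the interaction, was called below 0 for 29 (5.42% of all IDs) and above 0 for 0 (5.37%). All these contrasts had chosen the members, so the counts are no support for the pattern. They show how many members the spread between libraries leaves short of the threshold: 6 for light in the parent and 24 for the interaction. The 6 were TrE0327C, TrC0033W, TrD1255W, TrC0404W, TrE1178C and TrA0971W, named after their values were seen. Without parent dark replicate 1 the counts were 32 for light in the parent and 11 for the interaction, without deletion light replicate 2 or 3 the interaction count was 19 or 18, and other single omissions moved these 2 counts by less than 1.5 times.

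In the deletion strain the test called 0 members higher in light (20.3% of all IDs) and 2 lower (22.7% of all IDs), TrE0510W and TrC1388C. The number called in either direction was 0 to 3 when single libraries were left out. At an unadjusted p under 0.05 the number higher was also 0. The median log2 fold change for light was -0.08 in the deletion strain, with a median standard error of 0.231, and 1.20 in the parent, with a median standard error of 0.265. In the deletion strain 19 members had a positive and 34 a negative value, and standard errors of single members ran from 0.0969 to 1.24. For the members at the wide end, such as TrF0324C, the interval leaves a 2-fold response in the deletion strain undecided. In darkness the test called 0 members between the strains (7.25% of all IDs higher and 4.97% lower in the deletion strain), and DESeq2 also called 0. At an unadjusted p under 0.05 there were 3 higher, TrC0800W, TrC1388C and TrG0780C, and 1 lower, TrF0109W. Without deletion dark replicate 1 the test called 4: TrA0067W and TrC0800W higher, and TrC0033W and TrE1056C lower in the deletion strain. TrC0800W and TrC0033W did not meet the rule without that library. The share of all IDs at an unadjusted p under 0.05, or without that library, is not given here. Nothing is therefore read from the counts of members at that threshold or in that omission.

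The scaling moved these ratios. With TMM factors, which edgeR uses, the median log2 ratio of light over dark over the 7189 IDs was lower by 0.20 in the deletion strain and by 0.16 in the parent than with library totals. On library totals the members' median log2 light ratio was 0.12 in the deletion strain, against 0.24 for all 7189 IDs, and with TMM it was -0.07, against 0.04. Its sign in the deletion strain therefore depended on the scaling. In the parent it was 1.28 on library totals and 1.13 with TMM. With TMM in the rule, 45 IDs qualified and 30 of them were among the 53.

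The ranges of the groups were also set side by side, without a test. The rule chose on the same values, so these counts describe the members and are no support for the pattern. Parent light lay wholly above parent dark for 52 members (38.9% of all IDs tested), with TrA0727W as the exception. Deletion light lay wholly below parent light for 51 (19.1%), the exceptions being TrE1178C and TrD0647C. Within the deletion strain, light lay wholly above darkness for 11 members (43.6%) and wholly below for 1, TrB0237W (21.2%). Deletion dark lay wholly above parent dark for 14 members (25.4%) and wholly below for 1, TrF0109W (15.0%).

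TrB0237W was the member with the lowest light ratio in the deletion strain. It had 21.2, 12.1 and 12.3 CPM in deletion light and 21.7, 24.2 and 21.5 CPM in deletion dark libraries, against 33.7, 56.4 and 68.9 CPM in parent light and 11.1 and 21.0 CPM in parent dark libraries. Group means in light and dark thus differed in opposite directions in the 2 strains, with ratios of 0.684 and 3.23. The difference in the deletion strain was not called by edgeR's quasi-likelihood test (adjusted p 0.0976), and its 2 ranges came as close as 21.2 and 21.5 CPM. TrB0237W did not meet the rule with TMM scaling, where that ratio was 0.597, or without deletion light replicate 1.

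Since every library took part in the choice, each of the 11 was left out in turn, the rule was applied to the other 10, and the light ratio of the IDs so chosen was read with the left-out library in place of its group. The other light condition in that ratio was still among the libraries used. With a deletion light library left out, 77.4, 75.4 and 81.1% of the chosen IDs kept a ratio inside the window (41 of 53, 43 of 57 and 43 of 53 for replicates 1, 2 and 3), against 53.3, 53.3 and 54.6% of all IDs at the level minimum. With a deletion dark library left out, the shares were 49.2, 69.4 and 66.7% (30 of 61, 34 of 49 and 32 of 48), against 44.6, 57.0 and 56.3%. The share for deletion dark replicate 1 was near that of all IDs.

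With a parent light library left out, 69.6, 72.4 and 58.7% of the chosen IDs kept a ratio of at least 2 (39 of 56, 42 of 58 and 37 of 63), against 9.44, 8.91 and 9.31% of all IDs. The median ratio was 2.34, 2.39 and 2.10 in the left-out library, against 2.46, 2.45 and 2.32 in the libraries used for the choice. With a parent dark library left out, 74.1 and 44.3% kept the ratio (40 of 54 and 27 of 61), against 10.3 and 9.35%. The median was 2.79 for parent dark replicate 1 and 1.90 for parent dark replicate 2, so parent dark replicate 2 gave a smaller light difference than the choice had found.

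**Figure D4:**
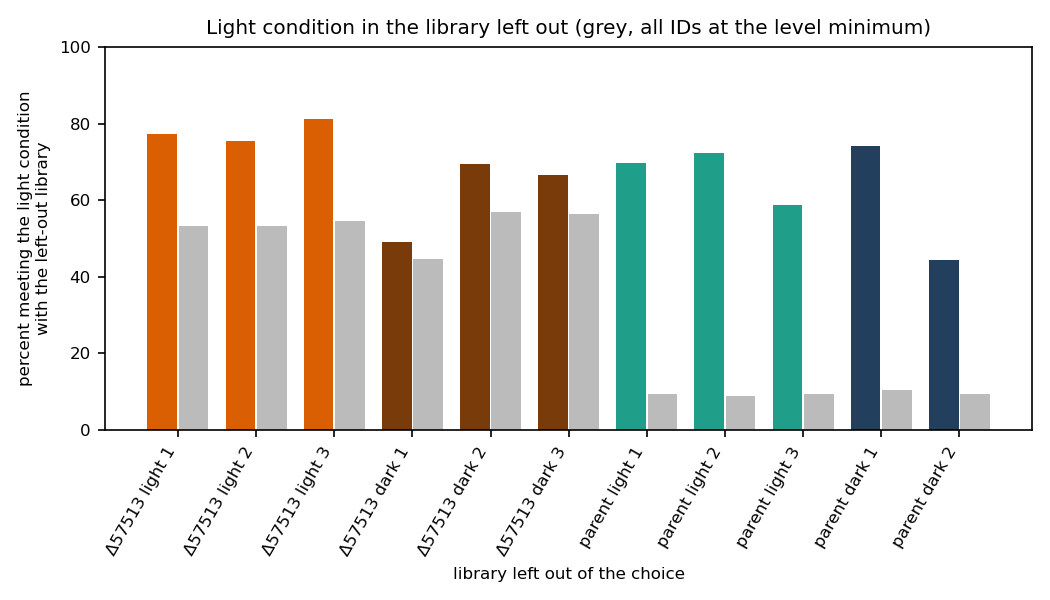
Percent of the IDs chosen without a library that kept their condition when that library was read in place of its group (coloured bars), beside the percent of all IDs at the level minimum (grey bars), for each of the 11 libraries. The parent bars range from 44.3 to 74.1% against 8.91 to 10.3%, and the deletion bars from 49.2 to 81.1% against 44.6 to 57.0%.

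Membership depended on single libraries. When each library was left out in turn, 9 members met the rule every time, 12 in all but 1 of the 11 omissions and 19 in all but 2. The other 13 met it in 5 to 8. Leaving out a parent dark library removed 29 members in all, a deletion dark library 23, a parent light library 14 and a deletion light library 12. The 9 that always met it were TrA1730C, TrA2066W, TrB0708W, TrB0891C, TrB1397C, TrC0475W, TrD0479W, TrE1235W and TrF0109W, a list drawn up after the values were seen. The same 9 also met the rule with TMM scaling.

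Most of those 9 were moderate in level and ratio. TrC0475W had 22.7, 21.3 and 20.2 CPM in deletion light and 15.5, 18.5 and 17.5 CPM in deletion dark libraries, against 37.4, 46.8 and 47.4 CPM in parent light and 15.2 and 14.6 CPM in parent dark libraries. TrF0109W had 15.9, 17.8 and 15.2 CPM in deletion light and 13.2, 19.2 and 17.3 CPM in deletion dark libraries, against 47.7, 47.9 and 53.5 CPM in parent light and 20.5 and 23.4 CPM in parent dark libraries. TrA2066W had 26.0, 19.8 and 20.5 CPM in deletion light and 19.1, 17.6 and 20.3 CPM in deletion dark libraries, against 44.6, 40.6 and 46.2 CPM in parent light and 15.8 and 16.3 CPM in parent dark libraries. In these 3 the parent light libraries stood apart from all the others with little spread. The parent ratios were 2.88, 2.24 and 2.68, and the deletion ratios 1.24, 0.984 and 1.16, in that order. The parent ratios of the other 6 were between 2.29 and 5.86.

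Replicate 1 was set beside replicates 2 and 3 in the parent light and the deletion dark group, in ratios of CPM with 0.5 added. Replicates 2 and 3 were not measured in this way, so replicate 1 is not shown to be the odd library. In parent light, replicate 1 was the highest library for 22 members and the lowest for 17, and replicate 3 for 21 and 24. Parent light replicate 1 was at least 1.5 times the mean of replicates 2 and 3 for 7 members (13.2%, against 3.06% of the 7189 IDs) and at most 1/1.5 of it for 6 (11.3%, against 8.54%). Of the 7 members with a parent ratio of at least 5, 4 were high and 2 low in it, and TrF0324C was level with the rest at 0.989. Deletion dark replicate 1 was at least 1.5 times the mean of the others for 10 members (18.9%, against 8.39%) and at most 1/1.5 of it for 4 (7.55%, against 9.95%). The highest were TrC0033W at 4.95, TrE0327C at 3.39 and TrD1255W at 3.24 times.

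TrC0033W had 13.2, 10.0 and 8.40 CPM in deletion light and 18.3, 3.64 and 2.97 CPM in deletion dark libraries, against 17.8, 17.6 and 20.3 CPM in parent light and 6.25 and 6.92 CPM in parent dark libraries. TrD1255W had 14.1, 15.4 and 13.8 CPM in deletion light and 28.3, 9.04 and 7.76 CPM in deletion dark libraries, against 23.2, 24.7 and 21.7 CPM in parent light and 5.83 and 14.3 CPM in parent dark libraries. For both, deletion dark replicate 1 was above every deletion light library and replicates 2 and 3 were below them. Without that library the light ratio in the deletion strain was 2.90 for TrC0033W, against 1.25 with it, and 1.68 for TrD1255W, against 0.961 with it. Neither then met the rule. Parent dark replicate 2 was the higher of the 2 for 39 of 53 members (73.6%), against 36.4% of the 7189 IDs. The part of these libraries in the members' ratios was tested only by leaving them out.

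**Figure D5:**
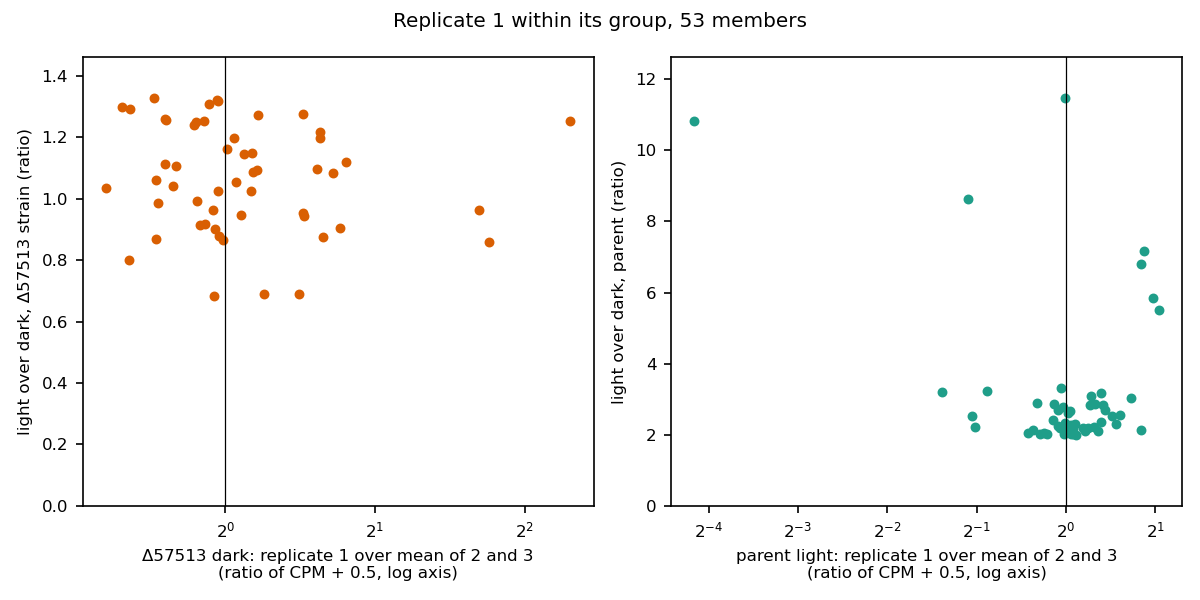
Replicate 1 over the mean of replicates 2 and 3, each with 0.5 CPM added (horizontal, log axis), in deletion dark (left) and parent light (right) libraries, against the light over dark ratio of the same strain (vertical, linear axis), one point per member. In deletion dark TrC0033W, TrE0327C and TrD1255W reach 4.95, 3.39 and 3.24, and in parent light the values run from 0.0559 to 2.05.

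The limits of the rule passed through crowded ranges for some conditions. At the parent light over dark limit of 2, TrD0647C (2.0) and TrA1412W (2.02) were just inside, and TrC0953C (1.996) and TrF0713C (1.985) just outside, where 3430 IDs met every other condition. At the upper deletion limit of 1.33, TrC1354C (1.328) and TrD0647C (1.320) were inside and TrF0962C (1.337) and TrA0556C (1.338) outside, with 287 IDs beyond it. At the lower deletion limit, TrB0237W (0.684) and TrA0727W (0.689) were inside and TrA0862C (0.647) and TrF0968C (0.633) outside, with 14 beyond it. So TrD0647C was a member by a narrow margin on 2 limits.

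At the parent light level of 5, TrB0891C (5.56) and TrB0756W (5.57) were inside and TrD0400W (4.77) and TrC1528C (4.72) outside, with 28 IDs below it. At the upper limit of the dark ratio, TrC0800W (1.486) and TrB0756W (1.474) were inside and TrF1081C (1.517) and TrA0864C (1.523) outside, with 64 beyond it. At its lower limit, TrC0877W (0.752) and TrF0704C (0.753) were inside and TrB0935C (0.606) and TrA2124W (0.561) outside, with only 2 beyond it.

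The place of the members in the ID series was not part of the rule, apart from the ends that were skipped. Series A to G held 8, 12, 14, 7, 6, 4 and 2 members. Series C held 26.4% of the members, against 14.5% of the 10596 eligible IDs, and series G 3.77%, against 11%. The end letter was W for 28 members (52.8%, against 49.4% of eligible IDs) and C for 25. No member was next to another in the ID series, and only TrC1352W and TrC1354C lay within 3 serial numbers of each other, 2 of 53 IDs. Of the 166 IDs higher in light in both strains, 39 (23.5%) lay within 3 serial numbers of another of their set, but the 2 sets differ in size.

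TrC1352W had 34.7, 34.8 and 34.0 CPM in deletion light and 32.8, 35.2 and 32.8 CPM in deletion dark libraries, against 100.2, 55.6 and 55.6 CPM in parent light and 29.2 and 36.1 CPM in parent dark libraries. TrC1354C had 11.7, 13.3 and 10.1 CPM in deletion light and 6.78, 8.97 and 10.3 CPM in deletion dark libraries, against 23.9, 20.3 and 16 CPM in parent light and 5.03 and 6.92 CPM in parent dark libraries. Parent light was the highest group for both, but their deletion ratios were 1.02 and 1.33. TrC1353C between them had a light over dark ratio of 1.84 in the deletion strain and 1.99 in the parent. Within 5 serial numbers lay one more pair, TrC0861W and TrC0865W. Of the 3 IDs between these, TrC0864C was the one nearest to the members' pattern, at 0.946 CPM in deletion light and 21.6 CPM in parent light, with light over dark ratios of 2.16 and 37.3. TrC0862W was 3.52 times as high in the deletion strain as in the parent in darkness, and TrC0863W had a parent light ratio of 1.14. The 78 neighbours of members that reached the level minimum had median light ratios of 1.27 in the deletion strain and 1.29 in the parent. A parent ratio of at least 2 was found for 9 of them (11.5%, against 8.94% of the 7189 IDs).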

How the data were processed

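The authors deposited raw read counts per gene ID, whole numbers without normalization, for 11 libraries. Library preparation was stranded and followed removal of ribosomal RNA, per the labels. HISAT2 2.2.1 is named in the submitters' processing notes. How the counting treated strand and multiply matching reads is not given in the sources used, so IDs with overlapping or near-identical partners are uncertain. Column names were matched to samples through the alignment names in the sample descriptions.

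CPM was computed from column totals, with which the rule was applied (Python 3.11.15, pandas 2.3.3). The members and lists were chosen with earlier results of these data known. Contrasts were fitted in edgeR 4.0.16 (R 4.3.3) over all 11 libraries with 4 group means, TMM factors, filterByExpr (9040 IDs kept, all 53 members among them) and robust quasi-likelihood estimation. DESeq2 1.42.0, limma 3.58.1 with voom, other scalings, filters and thresholds, thinned counts and each library left out were alternatives. IDs named in the text were the 6 members with the highest parent ratio, the 6 with the highest parent light level, the 4 whose deletion light range lay below parent light with the highest lowest value, the closest members in an ID series, those with the largest and smallest coefficient of variation in parent light, and those nearest each limit. IDs outside this rule were named after their values were seen. A floor is 3 counts, and intervals are exact at 95%.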

Additional observations from a re-analysis of the deposited data

Results flagged for a closer look

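The response to light differed between the strains by edgeR's quasi-likelihood interaction test (Benjamini-Hochberg adjustment over 9040 IDs) for 29 of the 53 members, against 5.42% of all IDs called in that direction. The rule selected on this contrast, so the calls describe the members and do not support the pattern. The log2 interaction is the light response in the deletion strain minus that in the parent. Among members with a parent ratio of at least 5 it was -4.06 for TrC1004W, -3.13 for TrB1220W, -2.66 for TrE1235W, -2.52 for TrA2088C and -2.48 for TrC0861W. Among abundant members it was -1.39 for TrE0510W, -1.33 for TrC0865W, -1.26 for TrE1056C and -1.19 for TrB0396C. Among called members that met the rule in every omission it was -1.90 for TrD0479W, -1.78 for TrB0891C, -1.29 for TrC0475W, -1.28 for TrA2066W, -1.24 for TrF0109W and -1.20 for TrB1397C, beside TrE1235W above. It was -2.32 for TrB0237W, -1.35 for TrC1354C and -1.19 for TrC1388C. Of the IDs just listed, TrC1004W, TrE0510W, TrE1056C, TrB0237W and TrC1388C did not meet the rule with TMM scaling, which the fit uses. TrF0324C and TrA0727W, with the 2 highest parent ratios, were not among the IDs called. Outlying values within a group were not tested, since groups held 2 or 3 libraries.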

How the results depend on the processing

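The number of IDs meeting the rule was 53, and 13 to 81 under 24 other settings. It was 81 with a parent light level of at least 1, 32 with at least 20 and 13 with a parent ratio of at least 3. Leaving out single libraries gave 48 to 63. Group medians gave 64 (40 shared with the 53), DESeq2 size factors 45 (29 shared), TMM 45 (30 shared) and thinning every library to 8020351 counts 51 (43 shared).

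Of members called for light in the deletion strain (2), limma voom and no filter on low counts left 1 each, upper-quartile factors 0 and a fit of the 2 groups alone 4. Single omissions gave 0 to 3 there, 0 to 4 for the strains in darkness, 11 to 31 for the interaction, 32 to 52 for light in the parent and 34 to 48 for the strains in light. For the strains in darkness, leaving out parent light replicate 1 and deletion dark replicate 1 together, chosen after the data were seen, gave 5. DESeq2 called 41 for the interaction, against 29. The causes were not tested. The direction of the median light ratio of the members in the deletion strain changed with the scaling (log2 0.12 on library totals, -0.07 with TMM). Leaving out deletion dark replicate 1 turned the light ratio in the deletion strain to 1.54 for TrE0327C, against 0.858 with it, and to 1.68 for TrD1255W, against 0.961. Runs of neighbouring IDs held 0 members at 1 serial number apart, 2 at 3 and 4 at 5.

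The deviations of same-numbered replicates from their group means correlated at 0.155, 0.00401 and 0.163 between deletion light and parent light, at -0.378 and -0.228 between deletion dark and parent dark, at 0.0147, -0.0518 and -0.0170 between deletion light and deletion dark, and at 0.261 and 0.138 between parent light and parent dark. No set of 3 pairs was above 0.1 throughout and the labels tie the numbers to nothing, so they were not taken as pairs. A fit with a replicate block called 41 members for light in the parent, 1 for light in the deletion strain, 39 for the strains in light, 0 in darkness and 21 for the interaction. With 2 or 3 libraries a group and few counts for some IDs, standard errors for light in the deletion strain ran from 0.0969 to 1.24 (log2), so the size of response that could be called differed between members.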
